A study of Arabidopsis thaliana with 12 samples.

Results

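Glutaredoxins are small oxidoreductases of the thioredoxin fold, and 31 of the 32705 rows of the deposited gene expression table carry the name of one of them. They were taken by name: a row entered when one of its gene names was GRXC, GRXS or ROXY followed by a number. No expression value entered that rule, but the family was chosen with earlier results of these data known. The study sequenced polyadenylated RNA of whole Arabidopsis thaliana seedlings of the Columbia ecotype, aged 10 days. It set seedlings that express a mutated form of TFIIS, a factor that helps stalled RNA polymerase II resume elongation by stimulating cleavage of the nascent transcript, beside seedlings that express the intact factor and beside seedlings left without induction.

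The 4 conditions had 3 libraries each. TFIISmut induced seedlings carried the inducible GFP-TFIISmut transgene and were exposed to 2 mM b-estradiol, the concentration as the labels state it, for 24 h. TFIISmut mock seedlings were of the same line and received ethanol in place of the estradiol. TFIIS induced seedlings carried the inducible GFP-TFIIS transgene and received the estradiol. TFIIS mock seedlings were of that line and received ethanol. All groups, the mocks included, were in the tfIIs-1 background (SALK_056755), an insertion mutant of the TFIIS gene, so none of them is wild type. The sources used here do not give the number of transgenic lines behind each construct.

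For each gene the table gives 1 value in each condition, which stands for the 3 libraries of that condition pooled by the authors. The 4 columns are called pools here. There is therefore no spread between libraries, no standard deviation, and no test in what follows. The unit was taken to be FPKM, a fragment count divided by transcript length and library size, and the column names were read as the construct crossed with the hours of estradiol. Both readings are inferred, and all values given by line depend on them. Depth per library is unknown.

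A glutaredoxin passes electrons from the tripeptide glutathione to oxidised cysteines of other proteins, and it can also take glutathione off a protein to which it has become bound. Members with a CPYC or related active site act mainly as such reductases. Members with a CGFS active site bind and hand on iron-sulfur clusters in chloroplasts, mitochondria and the cytosol. The CC class, named for the paired cysteines of its active site, is found in land plants only. Many of its members, such as ROXY1 of petal and anther development, bind TGA transcription factors in the nucleus, and others take part in nitrate and nitrogen-demand signalling between shoot and root.

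Of the 31 members, 21 were of the CC class, 6 of the CPYC class and 4 of the CGFS class, read by a script from the coding sequence of each locus in the TAIR10.1 genome. The CPYC class is counted here with its close relatives: 3 of its 6 members have exactly that site and the other 3, GRXC1, GRXC5 and GRXS12, a variant. The sequences below are the coding strand around the active site of the members that the results turn on, 5′ to 3′, with the 12 bases of the active site itself in capitals. They are shown to let the classes be told apart and the near-identity of 5 genes of chromosome 4 be seen. The first 3 are of the CPYC and CGFS classes, and the rest are of the CC class.
GRXC2: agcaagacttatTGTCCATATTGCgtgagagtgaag
GRXC1: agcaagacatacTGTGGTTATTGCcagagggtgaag
GRXS14: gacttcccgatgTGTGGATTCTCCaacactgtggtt
GRXS8: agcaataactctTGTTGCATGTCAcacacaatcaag
GRXS7: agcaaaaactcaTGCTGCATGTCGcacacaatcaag
GRXS4: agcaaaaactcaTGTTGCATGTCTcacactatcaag
GRXS5: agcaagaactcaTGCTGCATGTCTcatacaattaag
GRXS3: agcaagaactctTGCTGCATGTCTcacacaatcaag
GRXS2: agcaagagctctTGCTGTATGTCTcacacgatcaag
GRXC11: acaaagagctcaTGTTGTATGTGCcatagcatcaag
GRXC13: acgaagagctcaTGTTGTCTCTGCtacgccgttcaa
GRXC9: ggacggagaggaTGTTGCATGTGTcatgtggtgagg
GRXS13: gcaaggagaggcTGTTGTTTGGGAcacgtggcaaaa

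The first 2 of the capital codons in the CC class are TGT or TGC, which both encode cysteine, while the second codon is CCA in GRXC2 and GGT in GRXC1. The classes also differ in build. Of the 21 CC genes, 20 have no intron, and GRXS13 has 1, whereas GRXS14 is the only one of the 10 other members without an intron. CC proteins have 99 to 159 residues and the others 125 to 488, and 15 CC proteins are shorter than every member of the other classes.

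A group of 5 CC genes that carried much of the result stands in a row on the plus strand of chromosome 4, within chr4:8925571-8938124 of TAIR10.1, a stretch of 12554 bases. Their order is GRXS8, GRXS7, GRXS4, GRXS5 and GRXS3, with no other protein-coding gene between them in the annotation. Over the 10 pairs, their coding sequences were 88.3% to 93.2% identical, against 72.5% at most with any other CC member. Exact repeats were few: the share of 50-base windows of their transcripts that recur unchanged in the genome was 4.74% in GRXS3, 4.04% in GRXS8, 3.08% in GRXS5, 1.91% in GRXS7 and 0.613% in GRXS4. The sources used here do not give how reads that fit several genes were counted. An unknown part of each of these 5 values could therefore belong to another.

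All 5 genes of the group were low together. The 250 bases before the annotated start of GRXS8, GRXS7 and GRXS4, which share long and closely alike stretches of promoter, are given next. They are read on the plus strand of TAIR10.1, from chr4:8925321-8925570 for GRXS8, chr4:8928781-8929030 for GRXS7 and chr4:8931367-8931616 for GRXS4. Capitals mark every TGACG (the core that TGA factors bind), TTGAC (the core of the W-box of WRKY factors) and AGATT (bound by type-B response regulators of cytokinin), on either strand.
GRXS8: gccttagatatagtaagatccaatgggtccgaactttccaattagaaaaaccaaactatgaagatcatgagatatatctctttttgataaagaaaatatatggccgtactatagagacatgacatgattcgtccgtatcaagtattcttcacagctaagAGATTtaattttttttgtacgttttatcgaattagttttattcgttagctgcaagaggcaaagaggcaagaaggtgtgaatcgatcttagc
GRXS7: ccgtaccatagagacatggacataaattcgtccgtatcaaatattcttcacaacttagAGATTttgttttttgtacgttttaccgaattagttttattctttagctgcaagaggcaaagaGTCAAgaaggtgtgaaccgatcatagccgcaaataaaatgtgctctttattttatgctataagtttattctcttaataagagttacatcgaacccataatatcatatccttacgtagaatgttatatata
GRXS4: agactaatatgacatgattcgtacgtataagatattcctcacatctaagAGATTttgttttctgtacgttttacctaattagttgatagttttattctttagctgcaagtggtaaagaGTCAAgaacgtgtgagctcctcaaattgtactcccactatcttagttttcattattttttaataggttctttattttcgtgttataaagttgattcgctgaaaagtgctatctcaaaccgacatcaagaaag

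GRXS8 and GRXS7 shared their best stretch, 149 aligned bases at 89.9% identity, and GRXS7 and GRXS4 shared 124 aligned bases at 83.9%. The best stretch of GRXS8 with GRXS5 was 53 bases at 83%, and that of GRXS4 with GRXS3 was 141 bases at 68.8%. Any part of the promoters in the low levels was not tested. AGATT stood once in each of the 5 promoters of the group, from 76 bases before the start in GRXS5 to 201 bases before it in GRXS4. It was found in 16 of the 21 CC promoters and in 63.7% of the 27443 promoters of that length in the genome. TTGAC was found in 10 of the 21 CC promoters and in 44.9% of all. TGACG was found in 3 of the 21, those of GRXC9, GRXC10 and GRXS13, and in 18.6% of all. TTGACG would count for both TTGAC and TGACG. The AGATT match says only that these letters are there, and its share in CC promoters was near that of the genome.

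Across the pools, the TFIIS transcript (AT2G38560), native and transgene together, stood at 87.0 FPKM in TFIISmut induced, 17.6 in TFIISmut mock, 742 in TFIIS induced and 21.1 FPKM in TFIIS mock. It was thus higher with estradiol than without it in both lines, and the intact construct reached the higher level. Both shoot and root markers were present in every pool. The 7 shoot (photosynthetic) markers above 0 in all pools, of 8, summed to 7130, 13306, 10449 and 13214 FPKM in TFIISmut induced, TFIISmut mock, TFIIS induced and TFIIS mock. LHCB1.1 was listed at 0 in TFIISmut mock. The 7 root markers in the table, of 8, were all above 0 and summed to 28.9, 51.8, 46.2 and 50.9 FPKM in the same pools. Of 7 anther markers 3 were above 0 in all pools, with sums of 12.4, 20.3, 26.5 and 17.0 FPKM that came mostly from TPD1, and A9 was listed at 0 in all.

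The family as a whole was expressed in all pools, and no member was listed at 0 anywhere. The 6 CPYC genes were the most abundant class, with summed levels of 1071 FPKM in TFIISmut induced, 645 in TFIISmut mock, 645 in TFIIS induced and 658 in TFIIS mock. The 4 CGFS genes summed to 382, 348, 292 and 333 FPKM in the same order of pools. The 21 CC genes together summed to 142 FPKM in TFIISmut induced, against 279, 267 and 228 FPKM in TFIISmut mock, TFIIS induced and TFIIS mock. The CPYC sum was thus highest, and the CC sum lowest, in seedlings that expressed the mutated factor.

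**Figure D1:**
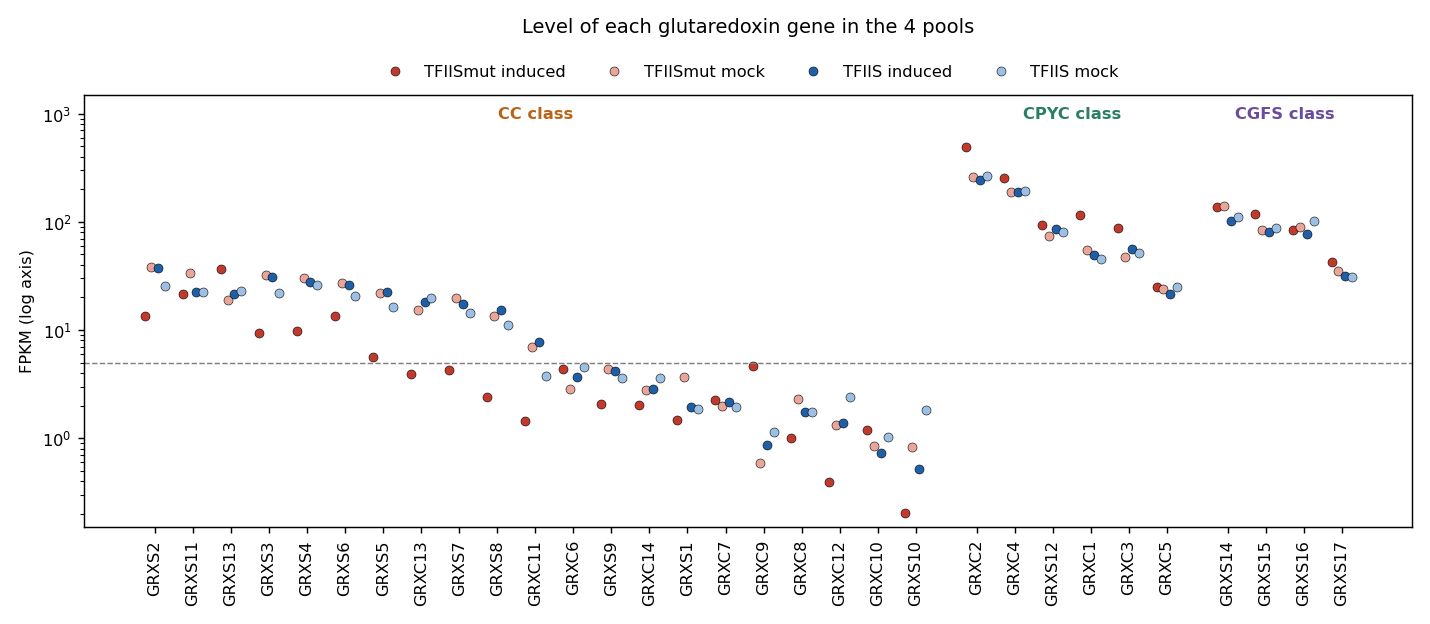
Level of each of the 31 glutaredoxin genes in FPKM (log axis), one point per pool, in the order TFIISmut induced, TFIISmut mock, TFIIS induced and TFIIS mock, with the genes of each class sorted by mean level. The dashed line marks 5 FPKM, the TFIISmut induced point lies below the other 3 for 16 of the 21 CC genes, and the CPYC and CGFS genes lie above 20 FPKM in every pool.

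Differences are given on the log2(FPKM + 1) scale, which understates changes of weakly expressed genes. A gene was eligible when its larger FPKM was at least 5 and neither value was 0, and it counted as higher or lower when the difference was at least 1. By that rule 21 members were eligible in each comparison, namely 11 CC genes, all 6 CPYC genes and all 4 CGFS genes. The other 10, all of the CC class, stayed under 5 FPKM in every pool. A gene was called measured when it reached 1 FPKM in either pool and was at 0 in neither.

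In the TFIISmut line, 8 glutaredoxins were lower in TFIISmut induced than in TFIISmut mock seedlings, all of the CC class, and 1 was higher, GRXC1 of the CPYC class. Of all 14456 eligible genes, 1.69% were lower and 5.51% higher, so that 8 of 21 lower is far above the background and 1 of 21 higher is near it. The 8 genes were the 5 of the chromosome 4 group, GRXC11, GRXC13 and GRXS2. The 20 measured CC genes had a median difference of -0.85, with 15 below 0, against a median of 0.03 over all 18950 measured genes, of which 46.6% were below 0. In RNA of whole seedlings, fewer cells of a type and less RNA per cell cannot be told apart.

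In TFIISmut induced against TFIISmut mock, the measured markers of shoot and root lay below 0, as did most measured CC genes. In the same comparison the shoot markers had a median of -0.90, with 7 of 7 measured below 0 and 2 lower by the size rule. The root markers had a median of -0.67, with 7 of 7 below 0 and none of the 3 eligible past the rule. Their differences ran from -1.06 to -0.64 in the shoot list and from -0.85 to -0.35 in the root list. Over all 20 measured CC genes the range was from -2.08 to 1.83, and the median of -0.85 lay between those of the marker lists. In TFIIS induced against TFIIS mock, the shoot markers had a median of -0.32, with 8 of 8 measured below 0. The root markers had a median of -0.11 there, with 5 of 7 below 0. The CC median in that line was 0.04, with 9 of 21 below 0. The part of these tissues in the CC result was not tested.

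GRXS8 (AT4G15660, chr4:8925571-8926510, plus strand), the first gene of the chromosome 4 group, was at 2.41 FPKM in TFIISmut induced, 13.5 in TFIISmut mock, 15.4 in TFIIS induced and 11.1 FPKM in TFIIS mock. The TFIISmut induced pool was the low one, and the other 3 lay close together. Its difference within the TFIISmut line, -2.08, was the 9th lowest of the 14456 eligible genes.

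GRXS7 (AT4G15670), 4.23 FPKM in TFIISmut induced, was at 19.7, 17.5 and 14.4 FPKM in TFIISmut mock, TFIIS induced and TFIIS mock. Its difference of -1.98 ranked 12th from the bottom. GRXS5 (AT4G15690), 5.58 FPKM in TFIISmut induced, was at 22.1 FPKM in TFIISmut mock, 22.2 in TFIIS induced and 16.3 in TFIIS mock, a difference of -1.81 within the TFIISmut line. These genes of the group thus shared the same single low pool.

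GRXS3 (AT4G15700), the last of the group, was at 9.36 FPKM in TFIISmut induced, 32.3 in TFIISmut mock, 31.0 in TFIIS induced and 21.8 in TFIIS mock, a difference of -1.68. GRXS4 (AT4G15680) was at 9.86 FPKM in TFIISmut induced, 30.0 in TFIISmut mock, 27.7 in TFIIS induced and 26.1 in TFIIS mock, a difference of -1.51. Genes of this group are known in Arabidopsis to respond to nitrate and to limit growth of the primary root. Summed over the group, the 5 levels came to 31.4 FPKM in TFIISmut induced, 117 in TFIISmut mock, 114 in TFIIS induced and 89.7 in TFIIS mock.

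The protein-coding genes on both sides of the group were read for comparison. AT4G15650, the nearest of them before GRXS8, was at 0.0730 FPKM at most. AT4G15640, the next one out, was at 40.1 FPKM in TFIISmut induced, 35.9 in TFIISmut mock, 32.3 in TFIIS induced and 34.1 in TFIIS mock. AT4G15710, after GRXS3, was at 1.60, 3.49, 6.47 and 1.57 FPKM in those pools, and reached 5 FPKM only in TFIIS induced. Like the group, it was lower in TFIISmut induced than in TFIISmut mock and in TFIIS induced.

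GRXS2 (AT5G18600) on chromosome 5, a close relative of the group, was the most abundant CC gene in TFIISmut mock, at 38.0 FPKM, and stood at 13.5 FPKM in TFIISmut induced. It was at 37.1 FPKM in TFIIS induced and 25.7 in TFIIS mock. Its difference within the TFIISmut line was -1.43, the smallest of the 8.

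GRXC13 (AT2G47880), known as CEPD2, a polypeptide that travels from shoot to root to report nitrogen demand, was at 3.88 FPKM in TFIISmut induced, 15.4 in TFIISmut mock, 18.1 in TFIIS induced and 19.6 in TFIIS mock. It differed by -1.75 within the TFIISmut line. The annotation places AT2G47885 on the opposite strand over this gene. The library kit keeps strand, but the sources used here do not give the strand setting of the counting, so reads of the antisense gene cannot be told apart from those of GRXC13. GRXS11 (AT1G06830), known as CEPD1 and of the same pathway, was at 21.7 FPKM in TFIISmut induced, 33.5 in TFIISmut mock, 22.5 in TFIIS induced and 22.5 in TFIIS mock. Here the TFIISmut mock pool was the one that stood apart, and the difference of -0.61 did not reach the rule.

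GRXC11 (AT3G62950) was at 1.45 FPKM in TFIISmut induced, 6.91 in TFIISmut mock, 7.81 in TFIIS induced and 3.77 in TFIIS mock, a difference of -1.69. The mock pools differed more for it than for any other member, by 0.73. GRXS6 (AT3G62930), its neighbour but one on chromosome 3, was at 13.4 FPKM in TFIISmut induced, 27.3 in TFIISmut mock, 26.3 in TFIIS induced and 20.6 in TFIIS mock. Its difference of -0.98 fell just short of the rule. AT3G62940, between them and no glutaredoxin, was at 70.2 FPKM in TFIISmut induced, 68.1 in TFIISmut mock, 59.4 in TFIIS induced and 55.3 in TFIIS mock.

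**Figure D2:**
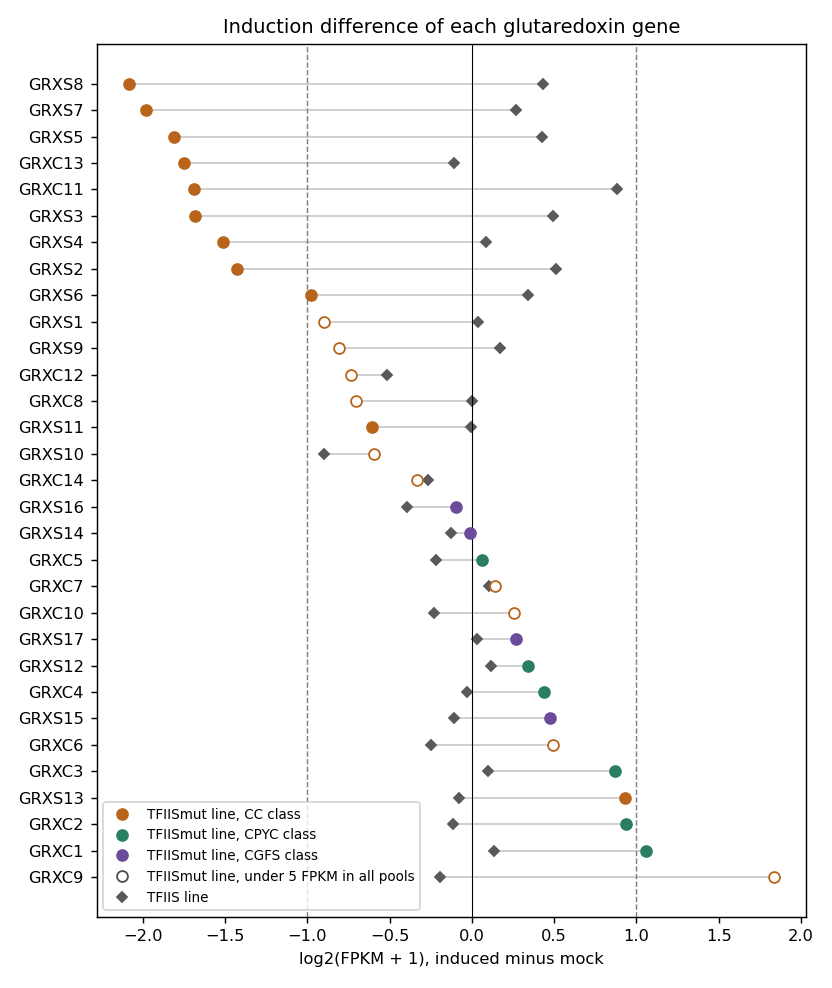
Induced minus mock on the log2(FPKM + 1) scale for each of the 31 glutaredoxins, in the TFIISmut line (circles coloured by class, open for genes under 5 FPKM in all pools) and in the TFIIS line (grey diamonds), sorted by the TFIISmut value. Dashed lines mark -1 and 1, and the 8 filled CC circles left of -1 have their diamonds between -0.11 and 0.88.

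GRXS13 and GRXC9, CC genes known from defence, lay on the other side. GRXS13 (AT1G03850), the CC gene with an intron, which is known to limit photooxidative damage and to favour infection by Botrytis, was at 36.9 FPKM in TFIISmut induced, 18.9 in TFIISmut mock, 21.5 in TFIIS induced and 22.8 in TFIIS mock. Its difference was 0.93. GRXC9 (AT1G28480), also called GRX480, a TGA-binding glutaredoxin induced by salicylic acid, was at 4.65 FPKM in TFIISmut induced, 0.585 in TFIISmut mock, 0.868 in TFIIS induced and 1.13 in TFIIS mock. It had the highest difference of the family, 1.83, but stayed under the 5 FPKM that the rule asks for.

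The remaining weakly expressed CC genes kept under 5 FPKM in all pools. ROXY1, here GRXC7 (AT3G02000), the founding member from petal development, was at 2.28 FPKM in TFIISmut induced, 1.98 in TFIISmut mock, 2.18 in TFIIS induced and 1.96 in TFIIS mock, with little between the pools. ROXY2, here GRXC8 (AT5G14070), its partner in anther development, was at 1.01, 2.28, 1.74 and 1.74 FPKM in TFIISmut induced, TFIISmut mock, TFIIS induced and TFIIS mock.

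GRXS1 (AT1G03020) was at 1.49 FPKM in TFIISmut induced, 3.64 in TFIISmut mock, 1.95 in TFIIS induced and 1.88 in TFIIS mock, so that the TFIISmut mock pool was the high one. GRXS10 (AT3G21460) was at 0.204, 0.821, 0.514 and 1.82 FPKM, and GRXC12 (AT2G47870) at 0.396, 1.32, 1.37 and 2.38 FPKM, in TFIISmut induced, TFIISmut mock, TFIIS induced and TFIIS mock. In both, TFIISmut induced was lowest and TFIIS mock highest. GRXC6 (AT4G33040) was at 4.41 FPKM in TFIISmut induced, 2.83 in TFIISmut mock, 3.69 in TFIIS induced and 4.57 in TFIIS mock. The other 3 of these genes, GRXC10, GRXC14 and GRXS9, ran from 0.735 to 4.37 FPKM, and their differences within the TFIISmut line ran from -0.81 to 0.26.

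The CPYC class moved the other way. All 6 genes had a larger value in TFIISmut induced than in TFIISmut mock, or 5 of the 6 when the pools were rescaled without organelle genes or by quantile normalization. Their median difference was 0.65, against 0.03 over all measured genes, of which 10123 of 18950 lay above 0. By the rule 1 of the 6 was higher, though not under those rescalings, beside 5.51% of all eligible genes. GRXC1 (AT5G63030), a cytosolic member that can hold an iron-sulfur cluster, was at 116 FPKM in TFIISmut induced, 54.9 in TFIISmut mock, 49.7 in TFIIS induced and 45.1 in TFIIS mock, a difference of 1.06. GRXC2 (AT5G40370), the other cytosolic reductase and the most abundant glutaredoxin, was at 493 FPKM in TFIISmut induced, 257 in TFIISmut mock, 243 in TFIIS induced and 263 in TFIIS mock. Its difference of 0.94 was just under the rule. For both genes TFIISmut induced was the single high pool.

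GRXC3 (AT1G77370) and GRXC4 (AT5G20500) carry a signal for the secretory pathway. GRXC3 was at 87.7 FPKM in TFIISmut induced, 47.7 in TFIISmut mock, 55.6 in TFIIS induced and 51.9 in TFIIS mock, and GRXC4 at 256 FPKM in TFIISmut induced, 188 in TFIISmut mock, 189 in TFIIS induced and 193 in TFIIS mock. Their differences were 0.87 and 0.44. The chloroplast members GRXC5 (AT4G28730) and GRXS12 (AT2G20270) differed less, by 0.06 and 0.34, and across the pools they ranged from 21.4 to 25.1 FPKM and from 73.2 to 93.0 FPKM.

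The CGFS class showed no shared direction in that comparison: 2 of 4 genes lay above 0 and the median difference was 0.13, which came to about 0 under either rescaling. GRXS15 (AT3G15660), the mitochondrial member, was at 117 FPKM in TFIISmut induced, 83.8 in TFIISmut mock, 80.9 in TFIIS induced and 87.4 in TFIIS mock, a difference of 0.48. GRXS14 (AT3G54900), in chloroplasts, was at 138 FPKM in TFIISmut induced, 139 in TFIISmut mock, 102 in TFIIS induced and 111 in TFIIS mock, so both TFIISmut pools lay above both TFIIS pools. GRXS16 (AT2G38270), also in chloroplasts, was at 84.4 FPKM in TFIISmut induced, 90.2 in TFIISmut mock, 77.8 in TFIIS induced and 103 in TFIIS mock. GRXS17 (AT4G04950), a cytosolic and nuclear member with 3 CGFS sites, ranged from 31.2 to 42.7 FPKM and was highest in TFIISmut induced. For GRXC4, GRXS12 and GRXS15 the counted interval runs 3060, 972 and 1777 bases past the annotated gene, so their values may hold reads of a neighbour.

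In the TFIIS line, no glutaredoxin was higher or lower in TFIIS induced than in TFIIS mock seedlings, with 21 eligible. Of all 14203 eligible genes 0.69% were higher and 0.789% lower, so none of 21 does not stand apart from it. The CC median was 0.04 over 21 genes, the CPYC median 0.03 and the CGFS median -0.12, against 0.01 over all genes. When organelle genes were dropped and every pool was brought to the same total, the median of all measured genes in that comparison moved to -0.14. The CC and CPYC medians went below 0 with it, to -0.09 and -0.14. The largest difference was that of GRXC11, 0.88, followed by GRXS2 with 0.51 and GRXS3 with 0.49. The lowest were those of GRXS10 with -0.90, GRXC12 with -0.51 and GRXS16 with -0.40.

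**Figure D3:**
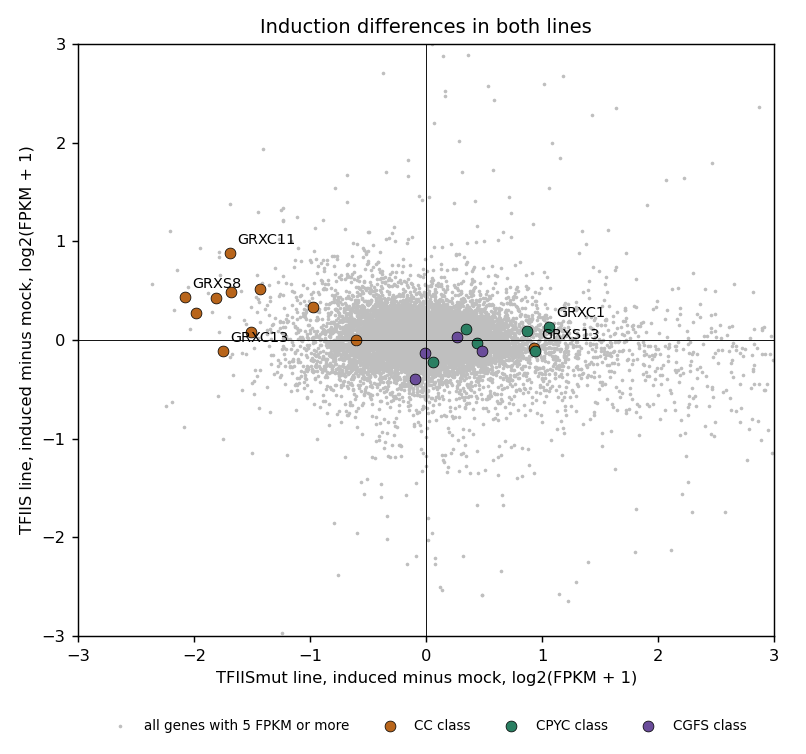
Induced minus mock on the log2(FPKM + 1) scale, in the TFIISmut line on the horizontal axis and the TFIIS line on the vertical axis, for the 21 glutaredoxins of 5 FPKM or more (coloured by class) and all 14835 genes at that level (grey), 133 of which lie beyond the axes. CC genes sit to the left, as far as -2.08, except GRXS13 at 0.93, and CPYC genes to the right, up to 1.06. Every glutaredoxin is within 1 of 0 on the vertical axis.

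With estradiol in both lines, TFIISmut induced and TFIIS induced seedlings can be set side by side, which takes the estradiol itself out of the comparison. The mutation cannot be told apart here from the line or from the level of the construct. The TFIIS transcript stood at 87.0 FPKM in TFIISmut induced and 742 in TFIIS induced. This comparison shares the TFIISmut induced pool with the comparison within that line, so its values are not a second measurement of it. Lower in TFIISmut induced were 8 glutaredoxins of 21 eligible, against 2.57% of the 14619 eligible genes, and higher were 2, GRXC1 and GRXC2, against 5.34%. The lowest differences were those of GRXS8 with -2.26, GRXC13 with -1.97 and GRXC11 with -1.85. GRXC1 differed by 1.20 and GRXC2 by 1.02, while GRXC9, below the level the rule asks for, differed by 1.60. The median was -0.76 over 20 measured CC genes, 0.54 over 6 CPYC genes and 0.42 over 4 CGFS genes, against 0.01 over all genes. The shoot markers had a median of -0.52 in this comparison and the root markers -0.51.

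The comparison of the uninduced lines shows how much 2 pools can differ when neither transgene is switched on. No glutaredoxin was higher or lower in TFIISmut mock than in TFIIS mock, with 21 eligible, and 0.248% of all 14113 eligible genes were higher and 0.787% lower. The largest differences were those of GRXC11 with 0.73, GRXS1 with 0.69 and GRXS11, GRXS2 and GRXS3 with 0.55 each. The lowest were those of GRXS10 with -0.63 and of GRXC6 and GRXC12 with -0.54 each. The median was 0.22 for the CC genes and -0.05 for the CPYC genes.

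The difference between the lines in their response to estradiol subtracts the estradiol response of the TFIIS line from that of the TFIISmut line. It was at or below -1 for 9 of 21 eligible glutaredoxins, against 2.97% of 14835 eligible genes, and at or above 1 for 2, against 6.57%. The 9 were the 8 named above and GRXS6, at -1.32. The 2 were GRXC2, at 1.05, and GRXS13, at 1.01. The lowest values were those of GRXC11 with -2.58, GRXS8 with -2.52 and GRXS7 with -2.25. By class, the median was -0.94 for 21 CC genes, 0.62 for 6 CPYC genes and 0.27 for 4 CGFS genes, against 0.02 over all genes.

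The TFIISmut induced pool can also be set against each of the other 3 pools at once. It had the lowest level of the 4 for 10 of 21 eligible glutaredoxins, all of the CC class, against 36.1% of eligible genes. It had the highest level for 8 of 21, made up of 5 CPYC genes, 2 CGFS genes and GRXS13, against 43.6% of eligible genes. Over the family these shares are not far from their backgrounds, and the counts are given for their split by class. At any level, TFIISmut induced was the lowest pool for 16 of the 31 members, all of them CC genes, against 35.8% of the 22575 genes above 0 in every pool.

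Genes that work with glutaredoxins were followed in 7 lists. In TFIISmut induced against TFIISmut mock, their counts stand beside a background of 46.6% of all measured genes below 0, and of 5.51% higher and 1.69% lower among eligible genes. In TFIISmut induced against TFIIS induced the background was 5.34% higher and 2.57% lower, and for the difference between the lines in response it was 6.57% higher and 2.97% lower. Glutathione synthesis and recycling had all 8 genes above 0 in TFIISmut induced against TFIISmut mock, or 6 of 8 under either rescaling. The median of that list was 0.29, with none past the rule. DHAR1, which regenerates ascorbate with glutathione, was at 403 FPKM in TFIISmut induced, 275 in TFIISmut mock, 212 in TFIIS induced and 309 in TFIIS mock. Its response to estradiol in the TFIISmut line minus that in the TFIIS line was 1.09, the only one of the list past the rule in any comparison.

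Thioredoxins and their reductases, the parallel reducing system, had a median of 0.43 over 12 measured genes, with 10 above 0 and 1 higher by the rule. That gene was TRXH2, at 212 FPKM in TFIISmut induced, 104 in TFIISmut mock, 102 in TFIIS induced and 115 in TFIIS mock, a difference of 1.02. TRXH8 was at 76.0 FPKM in TFIISmut induced, 40.7 in TFIISmut mock, 23.9 in TFIIS induced and 31.6 in TFIIS mock, and its difference between TFIISmut induced and TFIIS induced was 1.63. Within the TFIIS line the list's median was -0.11.

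TGA transcription factors, partners of CC glutaredoxins, had a median of -0.13 over 10 genes in TFIISmut induced against TFIISmut mock. None of the 7 eligible there was past the rule. TGA9, which works with ROXY1 and ROXY2 in anthers, was at 2.17 FPKM in TFIISmut induced, 4.63 in TFIISmut mock, 6.38 in TFIIS induced and 4.69 in TFIIS mock, a difference of -1.22 between TFIISmut induced and TFIIS induced.

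Of the nitrate uptake and response genes, 12 of 13 measured lay below 0 in TFIISmut induced against TFIISmut mock, against 46.6% of all genes, with a median of -0.56 and 2 lower by the rule. BT1, a nitrate-responsive scaffold protein with BTB and TAZ domains, was at 16.1 FPKM in TFIISmut induced, 78.1 in TFIISmut mock, 133 in TFIIS induced and 61.7 in TFIIS mock. It differed by -2.21 in the TFIISmut line and by 1.1 in the TFIIS line. BT2, its relative, was at 110.4 FPKM in TFIISmut induced, 265 in TFIISmut mock, 322 in TFIIS induced and 233 in TFIIS mock, differing by -1.26 in the TFIISmut line.

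HRS1, NRT3.1 and NIA1 of the nitrate list passed the rule in other comparisons. For the difference between the lines in response, 4 of the 13 eligible genes of the list were lower and 1, NRT3.1, was higher. NIA1 was among the lower ones, at -1.09. HRS1, a repressor that joins nitrate and phosphate signals in the root, was at 2.89 FPKM in TFIISmut induced, 6.21 in TFIISmut mock, 12.9 in TFIIS induced and 8.71 in TFIIS mock, a difference of -1.83 between TFIISmut induced and TFIIS induced. NRT3.1, the partner protein of high-affinity nitrate transporters, went against the list, at 87.4 FPKM in TFIISmut induced, 49.9 in TFIISmut mock, 49.4 in TFIIS induced and 65.0 in TFIIS mock. Its response to estradiol in the TFIISmut line minus that in the TFIIS line was 1.19.

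The 2 measured receptors of the CEP peptides, which act upstream of CEPD1 and CEPD2 in the shoot, had a median of -0.40 and none past the rule. CEPR1 was at 9.26 FPKM in TFIISmut induced, 13.4 in TFIISmut mock, 15.4 in TFIIS induced and 12.9 in TFIIS mock. Type-A response regulators of cytokinin had a median of -0.42 over 9 measured genes, with 7 below 0. Only 5 of them were eligible, and none was past the rule. ARR6 was at 5.74 FPKM in TFIISmut induced, 8.01 in TFIISmut mock, 13.3 in TFIIS induced and 7.23 in TFIIS mock. Its difference between TFIISmut induced and TFIIS induced was -1.08.

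Iron-sulfur cluster assembly genes, which work beside CGFS glutaredoxins, had a median of 0.07 over 11 measured genes, which went to -0.05 with organelle genes left out and to -0.02 with quantile normalization, and none past the rule in any comparison. Their largest difference within the TFIISmut line was that of the row of NFU5, a mitochondrial cluster carrier, which the table joins with AT1G51402, so the value is not that of NFU5 alone. It was at 358 FPKM in TFIISmut induced, 633 in TFIISmut mock, 591 in TFIIS induced and 626 in TFIIS mock, which came to -0.82. ISU2 and ISU3 were listed at 0 in all pools.

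**Figure D4:**
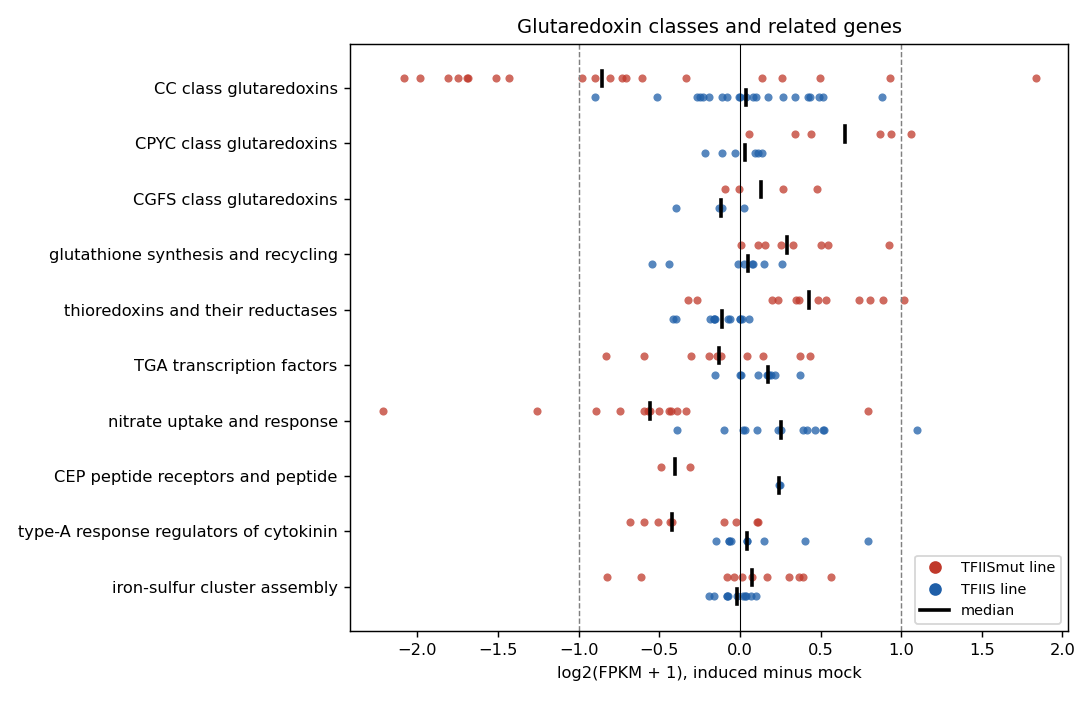
Induced minus mock on the log2(FPKM + 1) scale for the measured genes of each glutaredoxin class and of 7 lists of related genes, in the TFIISmut line (red, upper row) and the TFIIS line (blue, lower row), with a black bar at each median. The CC class and the nitrate list have their TFIISmut medians at -0.85 and -0.56 and their TFIIS medians at 0.04 and 0.26, while the thioredoxin and CPYC medians of the TFIISmut line are at 0.43 and 0.65.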

How the data were processed

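RNA-seq of whole seedlings was deposited as a table with 1 value per gene for each of 4 conditions, into which the authors had combined 3 libraries each. The deposited values were read as FPKM, normalized by the authors to transcript length and library size. Nothing in the table or labels names that unit or spells out the column names: GT was read as GFP-TFIIS, GTM as GFP-TFIISmut, and 0 and 24 as hours of estradiol. Bowtie2 2.3.5 was used, per the submitters' processing notes, with RNeasy extraction and TruSeq stranded mRNA libraries per the labels' protocols. The quantification tool, the genome build, the annotation and the treatment of reads that fit several genes are all not given in the sources used here. Since the depth of each library is unknown, no precision can be stated for any value.

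Of 32705 rows, 38 that share 19 identifiers were left out, which left 32667. Values were compared as log2(FPKM + 1) with a pseudocount of 1. Higher and lower mean that the difference was at least 1, with the larger FPKM at least 5 and neither value 0. With 1 value per condition there was no test. Had the table held a value per library, a test over libraries would have been used. Active-site sequences, promoters (250 bases before the annotated start), introns and coordinates were read from the TAIR10.1 genome and RefSeq annotation, to which all 31 loci were matched by locus tag, and coordinates are those of that annotation. The CPYC class was widened to its 3 related members after their sites had been read. The size rule was tested on simulated pools with known fold changes, and the quantile normalization on a small example. The other steps had no such test. Python 3.11.15, pandas 2.3.3, numpy 2.4.6, Biopython 1.88 and matplotlib 3.10.9 were used.

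Full values are given for members past the rule in any comparison, for the 3 members with the largest and the 3 with the smallest difference in each comparison among those reaching 1 FPKM, and for the 5 with the highest mean. GRXC3, GRXC7 and GRXC8 are also given in full and were chosen after their values were seen. Other members are given by range, by count or as neighbours of those. From each list of related genes, members past the rule in any comparison are named, at most the 4 with the largest differences. Where there was none, the one with the largest difference is named, and NIA1 is named in addition. Protein-coding genes flanking the groups of members are named by position. The members and lists were chosen with earlier results of these data known. Alternatives were a pseudocount of 0.1, no minimum level, organelle genes left out with rescaling to a common sum, quantile normalization, a 1.5-fold rule, rows that join several genes left out, and the other line's mock pool as the control. For the count of members lower in the TFIISmut line and above 0 in the TFIIS line, the alternatives were chosen after seeing the data.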

Additional observations from a re-analysis of the deposited data

Results flagged for a closer look

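Across the lines, 7 glutaredoxins, all of the CC class, met the size rule as lower in the TFIISmut line and had a difference above 0 in the TFIIS line, out of 21 eligible. Over all 14441 eligible genes 0.983% met both conditions, as did 58.4% of the 243 that were lower in the TFIISmut line. With 1 pool per condition the difference between the lines was not tested. On the log2(FPKM + 1) scale, the response to estradiol in the TFIISmut line minus that in the TFIIS line was -2.58 for GRXC11, -2.52 for GRXS8, -2.25 for GRXS7, -2.23 for GRXS5, -2.17 for GRXS3, -1.94 for GRXS2 and -1.60 for GRXS4. In the TFIIS line these 7 genes differed by 0.08 to 0.88, and none of them reached 1. With TFIISmut mock as the control of TFIIS induced, only GRXC11, GRXS5 and GRXS8 of the 7 stayed above 0 there, and GRXC13 joined them. With organelle genes left out, GRXS4 no longer met both conditions and GRXS6 did.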

How the results depend on the processing

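Of the 7 kinds of alternative, none turned the sign of a difference that met the size rule. The number of glutaredoxins lower in TFIISmut induced than in TFIISmut mock was 8, and 6 to 10 under the alternatives, beside 1.69% of eligible genes as reported. The 6 came with TFIIS mock as the control, beside 2.39%, and the 10 at 1.5-fold, beside 7.31%. With TFIIS mock, GRXC11 at -0.96 and GRXS2 at -0.88 no longer reached the rule. Counts of higher members were small and moved more. In TFIISmut induced against TFIISmut mock, 1 member was higher, beside 5.51% of eligible genes, against 2 with no minimum level (4.42%), 0 with organelle genes left out (4.55%), 0 with quantile normalization (4.75%) and 4 at 1.5-fold (11.5%). GRXC1 was then at 0.93 without organelle genes and 0.91 with quantile normalization. In TFIIS induced against TFIIS mock, the count of 0 became 1 with a pseudocount of 0.1 (0.76%) and 1 at 1.5-fold (1.9%). In TFIISmut induced against TFIIS induced, 2 became 1 without organelle genes (4.88%), 1 with quantile normalization (4.8%) and 4 at 1.5-fold (13.0%). In TFIISmut mock against TFIIS mock, 0 became 1 at 1.5-fold (1.14%). For the difference between the lines in response, 2 higher became 0 with quantile normalization (5.96%) and 5 at 1.5-fold (13.2%). The 7 members lower in the TFIISmut line and above 0 in the TFIIS line became 4 with TFIISmut mock as the control of TFIIS induced, beside 0.734% of eligible genes. The cause was not tested, other than that a 1.5-fold rule and the lack of a minimum admit more genes by construction. Leaving out organelle genes also moved the median over all genes with 5 FPKM or more in any pool. It went from 0.02 to -0.15 in the TFIIS line and from 0.04 to -0.08 in the TFIISmut line. No paired analysis was possible because the table holds 1 pooled value per condition, so the replicate block and the leaving out of single libraries were not run. Depth per library is unknown and the spread between libraries cannot be seen, so a difference of the size rule has no error attached to it.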

Other observations

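Of genes near the glutaredoxins, GRXC14 (AT3G62960), which lies next to GRXC11 on chromosome 3, was at 2.01 FPKM in TFIISmut induced, 2.79 in TFIISmut mock, 2.82 in TFIIS induced and 3.59 in TFIIS mock. GRXC12 and GRXC13, neighbours on chromosome 2, differed by -0.73 and -1.75 within the TFIISmut line. The groups of neighbours on chromosomes 2 and 3 thus held genes at levels too low for the size rule beside others that met it.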
